A study of Mus musculus with 2 samples.

Results

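The G2 and mitosis genes described here are 50 genes, and the RNA of most of them is made mainly between the end of DNA replication and cell division. They were found by symbol among the 31053 genes of the deposited count tables, and each symbol matched 1 gene in both tables. The genes fall by role into 10 mitotic kinases, cyclins and their regulators, 4 ubiquitin ligases and their partners, 10 chromosome and nuclear envelope proteins, 8 centromere, kinetochore and passenger proteins, 14 spindle and microtubule proteins, and 4 cytokinesis proteins. All 50 were detected in both libraries.

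The study asked which mouse bone marrow cells carry E-cadherin, an adhesion protein of epithelia that is rare in blood-forming tissue. E-cadherin+ bone marrow cells were sorted by flow cytometry with and without cKIT, the stem cell factor receptor, and the E-cadherin+cKIT+ cells and the E-cadherin+cKIT- cells were each sequenced as 1 droplet library of the 10x Genomics platform. The mice are FVB in the labels, and the paper calls them wild-type in 1 place and Vav-iCre;mTmG in another. In the latter, Cre is driven in the blood-forming lineage, switches on a reporter and leaves the Cdh1 gene intact. The cells of both sorts came from 3 mice, neither library is tied to a single mouse, and no age or treatment is given for them.

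Cell division is prepared in G2 phase and carried out in mitosis. Cdk1 with a B-type cyclin starts mitosis, condensins and topoisomerase II shape the chromosomes, kinetochores attach them to spindle microtubules, and the anaphase-promoting complex ends the phase by marking cyclin B and other proteins for destruction. Many of these genes are transcribed together through promoter elements bound by NF-Y (CCAAT) and by the DREAM and B-MYB complexes (the cell cycle homology region, TTTGAA), and in the blood-forming tissue a cell usually stops making their RNA when it leaves the cell cycle to mature.

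Cells were filtered as the methods of the study state. This kept 6479 of 6632 cKIT+ cells and 3662 of 3745 cKIT- cells. The cKIT+ cells were deeper, with a median of 13039 UMIs (RNA molecules counted) against 4416.5. The paper reports more sequencing reads, in total and per cell, for the sample whose cell number matches the cKIT+ library. The part of sequencing in this depth difference was not tested. Levels are given as CPM, the UMIs of a gene per 1000000 UMIs of the cells summed, with the cKIT+ value before the cKIT- value unless stated otherwise. Kit RNA was at 37.1 and 0.875 CPM, the direction the sort implies. A cell barcode was shared by both libraries in 10 cases. With 1 library for each sort no difference was tested, and all intervals are 95% intervals that cover counting error only.

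The promoters of 4 genes are shown because they carry the 2 letter strings that were searched in all members. Ccnb2, Cdc20 and Cdk1 had 12 UMIs or fewer in 1 class of cells described below, whereas Lbr was not lower there. Each is 300 bases of the RefSeq sequence of GRCm38.p6, from 250 bases before the start that RefSeq gives to 50 after it, read in the direction of the gene, with every CCAAT and TTTGAA on either strand in capitals. All 4 genes lie on the minus strand. The GENCODE M21 annotation begins Lbr further upstream, at base 181843046, so its window lies inside that gene model. The windows are chr9:70421505-70421804 for Ccnb2 (cyclin B2), chr4:118437294-118437593 for Cdc20 (activator of the anaphase-promoting complex), chr10:69352863-69353162 for Cdk1 (the mitotic kinase) and chr1:181842352-181842651 for Lbr (the lamin B receptor of the inner nuclear membrane).
Ccnb2: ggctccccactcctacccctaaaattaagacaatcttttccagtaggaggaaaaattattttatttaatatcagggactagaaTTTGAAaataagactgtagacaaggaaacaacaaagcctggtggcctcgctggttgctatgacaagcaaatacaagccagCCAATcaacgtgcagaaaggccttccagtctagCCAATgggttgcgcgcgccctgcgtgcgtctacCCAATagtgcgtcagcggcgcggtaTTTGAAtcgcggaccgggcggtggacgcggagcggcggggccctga
Cdc20: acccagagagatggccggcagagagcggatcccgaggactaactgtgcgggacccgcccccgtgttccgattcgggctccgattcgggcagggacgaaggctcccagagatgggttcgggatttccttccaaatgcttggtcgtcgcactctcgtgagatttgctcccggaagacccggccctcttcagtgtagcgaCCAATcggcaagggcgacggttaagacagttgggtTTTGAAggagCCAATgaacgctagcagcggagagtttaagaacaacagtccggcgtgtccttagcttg
Cdk1: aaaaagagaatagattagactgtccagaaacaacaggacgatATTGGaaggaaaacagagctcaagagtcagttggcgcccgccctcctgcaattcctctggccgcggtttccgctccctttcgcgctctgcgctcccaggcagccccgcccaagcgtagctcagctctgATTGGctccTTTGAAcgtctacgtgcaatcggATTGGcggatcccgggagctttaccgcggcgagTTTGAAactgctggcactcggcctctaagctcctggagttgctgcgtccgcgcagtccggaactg
Lbr: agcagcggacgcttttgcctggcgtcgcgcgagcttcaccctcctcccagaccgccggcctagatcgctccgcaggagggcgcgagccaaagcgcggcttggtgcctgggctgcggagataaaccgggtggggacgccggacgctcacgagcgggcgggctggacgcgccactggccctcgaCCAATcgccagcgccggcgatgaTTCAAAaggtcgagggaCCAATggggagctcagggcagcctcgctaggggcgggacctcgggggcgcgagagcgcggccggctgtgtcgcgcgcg

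The reverse complements of both strings, ATTGG and TTCAAA, were counted too, and a CCAAT match can share 1 base with a TTTGAA match. Windows were found for 44 of the 50 members, 48 windows in all. CCAAT was present in 77.1% of the 48 windows and in 37.4% of all 32851 windows of the table, and at least 2 copies in 60.4% and 11.7%. TTTGAA was present in 68.8% of the member windows and in 17.9% of all windows. Of the 44 TTTGAA matches in member windows, 30 began within 50 bases of the start, or 68.2%, against 25.3% of the matches in all windows. The windows of Birc5, G2e3, Nuf2, Nusap1 and Tacc3 held neither string. A match is a description of letters and not a bound site. Lbr, with 2 CCAAT and 1 TTTGAA, holds the same strings as Cdc20. The RNA levels of these genes went different ways over the groups of cKIT- cells described below. Over the like groups of cKIT+ cells both rose, Lbr from 143 to 271 CPM and Cdc20 from 76.5 to 166 CPM.

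Summed over the 50 genes, the E-cadherin+cKIT+ library held 664822 UMIs, or 7297 CPM (interval 7279 to 7315). The E-cadherin+cKIT- library held 212408 UMIs, or 9288 CPM (9249 to 9328), which made the cKIT+ level 0.786 of the cKIT- level (0.782 to 0.789). This order depended on the scale. With every cell given the same weight the mean share of a cell's UMIs was 0.612% and 0.620%, a ratio of 0.987, and as UMIs per cell, 102.6 against 58.0, the ratio was 1.77, with all 50 genes above 1. On that last scale 26 members, and 61.9% of the 12498 genes tested, lay past 2-fold toward cKIT+ cells. UMIs per cell are not corrected for the unequal reads of the libraries. Hence no order of the sorts is read from the sum.

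The chromosome and nuclear envelope proteins carried more UMIs than any other role, 297030 in the cKIT+ and 104771 in the cKIT- library. Hmgb2, a DNA-bending HMG-box protein, reached 1601 and 2825 CPM, or 21.9% and 30.4% of all member UMIs. Without it the ratio of the sorts was 0.881. Top2a, which untangles DNA strands, was at 420 and 364 CPM, Smc4, a condensin subunit, at 310 and 288 CPM, and Mki67, the coat protein of mitotic chromosomes known as Ki-67, at 245 and 232 CPM. These 3 genes thus ran slightly higher in the cKIT+ library, opposite to Hmgb2. Anp32e, a chaperone of the histone H2A.Z, had 184 and 151 CPM, and Rangap1, which activates the Ran GTPase, had 80.3 and 64.4 CPM. Tmpo, a lamina-associated protein, had 187 and 239 CPM, the condensin subunit Ncapd2 34.0 and 40.4 CPM, and Cdca2, which brings a phosphatase to chromatin, 42.2 and 42.9 CPM. Lbr was the member with the ratio furthest from 1, at 156 CPM (154 to 159) against 333 CPM (326 to 341).

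Among the kinases and their partners, the small Cdk-binding protein Cks2 was the most abundant, at 441 and 537 CPM. Its paralog Cks1b went the other way, with 258 and 219 CPM. Cdk1 stood at 150 CPM (147 to 152) against 235 CPM (228 to 241). Its partner Ccnb2 had 102 and 137 CPM. The Aurora kinases Aurka and Aurkb were nearer to each other, at 39.3 against 48.7 CPM and 59.4 against 65.4 CPM. Nek2, which separates the centrosomes, had 11.6 and 22.2 CPM. The spindle checkpoint kinase Ttk could not be told apart between the sorts, at 18.4 and 18.2 CPM with a ratio of 1.01 (0.907 to 1.13). For Cdc25c, the phosphatase that activates Cdk1, the levels were 9.60 and 11.7 CPM. Bub1, another checkpoint kinase, had 28.9 and 25.8 CPM.

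All 4 ubiquitin ligases and partners had CPM ratios below 1, and above 1 as UMIs per cell. Ube2c, the ubiquitin-conjugating enzyme of the anaphase-promoting complex, was at 335 and 460 CPM. Cdc20, which activates this complex, had 98.0 and 127 CPM. Cdca3, an adaptor that marks the mitosis inhibitor Wee1 for destruction, had 85.7 and 89.4 CPM with an interval of the ratio that spans 1, and the ligase G2e3 had 21.3 and 27.8 CPM.

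At the centromere, Cenpa, the histone H3 variant that marks it, was at 194 CPM (191 to 197) against 315 CPM (308 to 323). Hjurp, the chaperone that deposits Cenpa, showed no such gap, with 36.9 and 35.0 CPM and a ratio of 1.05 (0.974 to 1.14). Birc5 and Cdca8, the survivin and borealin subunits of the chromosomal passenger complex, had 228 against 278 CPM and 207 against 204 CPM. The kinetochore proteins Cenpf, Cenpe, Nuf2 and Ndc80 lay between ratios of 0.825 and 1.08.

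Spindle genes were led by Tubb4b, a beta-tubulin, with 462 and 500 CPM. Tpx2, which activates Aurora A on the spindle, had 118 and 106 CPM, and Nusap1, which bundles spindle microtubules, had 104 and 119 CPM. Ckap2, a microtubule-associated protein, had 22.1 and 40.3 CPM, whereas its paralog Ckap2l had 54.3 and 47.3. Psrc1, a rare spindle protein, had 8.19 and 6.73 CPM. The 8 other spindle genes, from Gtse1 at 6.54 CPM to Hmmr at 97.4 CPM in cKIT+ cells, had ratios between 0.752 and 1.10.

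The 4 cytokinesis genes were Kif20b (101 and 112 CPM), the midzone kinesin Kif23 (55.2 and 73.3 CPM), the RhoA activator Ect2 (30.3 and 34.0 CPM) and the scaffold Anln (25.8 and 25.9 CPM). Their summed ratio was 0.864, near that of the kinases at 0.847 and of the centromere genes at 0.830, and the spindle genes came closest to 1 at 0.946.

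Between the sorts, 17 members had a ratio above 1 and 33 below. With every cell given the same weight, 41 members were above 1, without the 5% of cells with most UMIs 27, and without the 10 most abundant genes in the totals 11. No member was 2-fold higher in cKIT+ cells, where 13.3% of the 12498 genes tested were (genes with at least 50 UMIs over both groups). Lbr alone was 2-fold lower, where 9.86% of the genes tested were. The median log2 ratio was -0.16 over the members and 0.03 over all genes tested. The 54 other G2 and mitosis genes had a median of -0.11, with 1 gene past 2-fold in each direction. Cyclin B1 (Ccnb1) had a ratio of 0.840, with 6836 and 2042 UMIs. Cyclin A2 (Ccna2) had 70.6 and 104 CPM, the mitotic kinase Plk1 39.2 and 40.4 CPM, and Foxm1, a transcription factor of G2 genes, 17.2 and 20.7 CPM. The most abundant of the 54, Jpt1, Smc2, Bub3, Ctcf and Pttg1, had ratios between 0.738 and 1.14. In contrast, 10 of 11 CDK inhibitors, pocket proteins and antiproliferative genes were lower by CPM in cKIT+ cells, where 6029 of the 12498 genes tested were. Of the 11, 6 were at least 2-fold lower, where 9.86% of the genes tested were. Between the sorts this list is given by CPM only, so no order of the sorts is read from it. Btg1 and Btg2, which slow cell growth, had 70.9 against 328 CPM and 45.0 against 194 CPM, and Cdkn2d, an inhibitor of Cdk4 and Cdk6, had 65.5 against 180 CPM.

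To separate how many cells carried these RNAs from how much each carried, 2000 UMIs were drawn from every cell that had them. A cell was called module-high with at least 10 member UMIs, which is 0.5% of its RNA. Of 6134 cKIT+ cells, 2602 were module-high, or 42.4% (41.2% to 43.7%), and of 3486 cKIT- cells 1006, or 28.9% (27.4% to 30.4%). Without thinning, the shares at 0.5% of all UMIs were 40.8% and 26.6%. At 4000 UMIs the order turned, with 43.8% and 45.8%, but 44.9% of the cKIT- cells were too shallow for it and left out, against 10.9% of the cKIT+ cells.

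**Figure D1:**
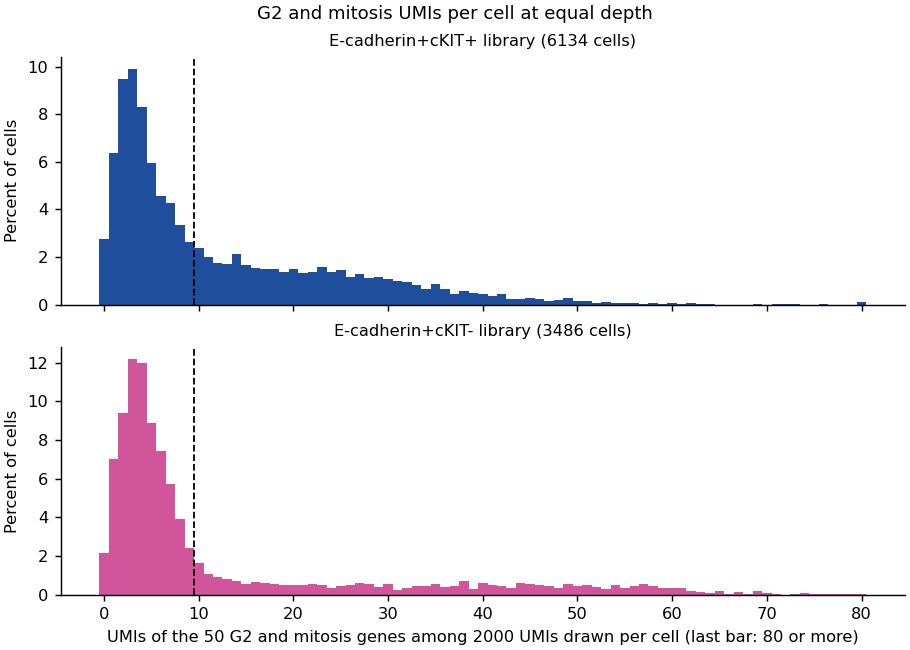
Histogram of the UMIs of the 50 genes among 2000 UMIs drawn per cell (x axis) against the percent of cells of each library (y axis), with a dashed line between 9 and 10 UMIs. Both libraries peak at a few UMIs. Right of the line the cKIT- cells spread more evenly, with an upper quartile of 48.75 UMIs against 30 in the cKIT+ cells.

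The module-high cells of the 2 libraries also differed in how much they carried. Their median was 22 member UMIs of 2000 in cKIT+ cells (quartiles 15 and 30) against 33 in cKIT- cells (18 and 48.75). In the other cells the median was 4 UMIs in both. The module-high cells were deeper than the rest, with a median of 18265 against 10955.5 UMIs in cKIT+ cells and 10494 against 3684 in cKIT- cells. A part of depth in these shares beyond thinning was not tested.

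The sorts were also compared within 1 gate. Cells are called basophils where Mcpt8, a basophil granule protease, made up 0.1% of their UMIs or more and no other lineage gate was passed, which took 2964 cKIT+ and 2802 cKIT- cells. The 2 sets were not alike in other markers: the primary granule genes Elane, Mpo, Prtn3 and Ctsg made up a median of 0.663% of UMIs in the cKIT+ and 0.132% in the cKIT- basophils, with 1378 cKIT+ cells near the 1% limit of that gate. Its part in the values was not tested. The 50 genes stood at 8344 CPM (8316 to 8371) in the cKIT+ basophils and 10334 CPM (10288 to 10380) in the cKIT- basophils, a ratio of 0.807. In cells with 5000 to 15000 UMIs alone, a window chosen after seeing the data, this ratio was 0.459. The window cuts the sorts unequally. At a median of 17192 UMIs, most module-high cKIT+ basophils lie above it. At a median of 3957 UMIs, most cKIT- basophils that are not module-high lie below it. The 0.459 is therefore not a ratio of matched cells. Given equal weight per cell the ratio was 1.03, so here too no order is read. Module-high cells were 50.5% (48.7% to 52.3%) of the cKIT+ and 33.6% (31.8% to 35.4%) of the cKIT- basophils. None of the members was 2-fold apart in either direction, where 10.1% of the 11162 genes tested were at least 2-fold higher in cKIT+ basophils and 7.77% at least 2-fold lower.

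Module-high basophils were then compared gene by gene at 2000 UMIs. These cells were chosen by the same genes, so the values are a description. The 50 genes summed to 17649 CPM in 907 cKIT- cells, against 12604 CPM for 1458 cKIT+ cells, 1.40 times as much (1.38 to 1.42). Hmgb2 alone was at 5104 CPM in these cKIT- cells and 2677 CPM in these cKIT+ cells, or 28.9% and 21.2% of the sums. For 29 members the interval lay wholly above 1 toward cKIT- cells, for 20 it spanned 1, and for Top2a alone it lay toward cKIT+ cells, at 811 against 735 CPM. Over the 7278 genes with 50 UMIs or more in these cells, the interval lay toward cKIT- cells for 22.1% and toward cKIT+ cells for 17.6%. The genes furthest toward cKIT- were Ckap2 (2.15 times), Nek2 (2.08), Lbr (2.01), Hmgb2 (1.91), Cdk1 (1.84) and Cenpa (1.73). Mki67, Cenpe, Hmmr and Bub1 were nearly level, between 1.01 and 1.03 times.

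Prss34, a serine protease of basophils, made up from none to over 8% of the UMIs of single basophils, and the sum of the 50 genes was higher at higher Prss34 in both libraries up to the bin from 4%. In cKIT+ basophils the 50 genes rose from 6096 CPM (6046 to 6146) in 682 cells below 0.2% Prss34 to 6848, 7167 and 9907 CPM in the bins from 0.2%, 1% and 2%, and to 12562 CPM (12470 to 12655) in 426 cells at 4% or more. Module-high cells rose with them, from 33.5% (29.9% to 37.2%) to 70.6% (66.0% to 74.9%). Over the same bins Kit fell from 34.3 to 4.59 CPM, while the median depth stayed between 12827 and 14734 UMIs.

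In cKIT- basophils the range was wider. The 808 cells below 0.2% Prss34 had 2242 CPM (2183 to 2302), and the next bins had 2880, 5856 and 9750 CPM. The highest level was 13079 CPM (13010 to 13148), in 1095 cells from 4% to 8%, and the 143 cells above 8% had 12205 CPM. Module-high cells were 2.44% (1.45% to 3.83%) in the lowest bin, or 18 of 737 cells, and 58.1% (55.1% to 61.0%) at 4% to 8%. Above 8%, the highest bin in the ratios below, they were 46.9% (38.5% to 55.4%), an interval that just overlaps that at 4% to 8%. The median cell held 0.725% of its UMIs in the members at 4% to 8% and 0.434% above 8%. Median depth moved along here, from 3046 to 9289 UMIs, and its part in the result was not tested beyond the following window.

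**Figure D2:**
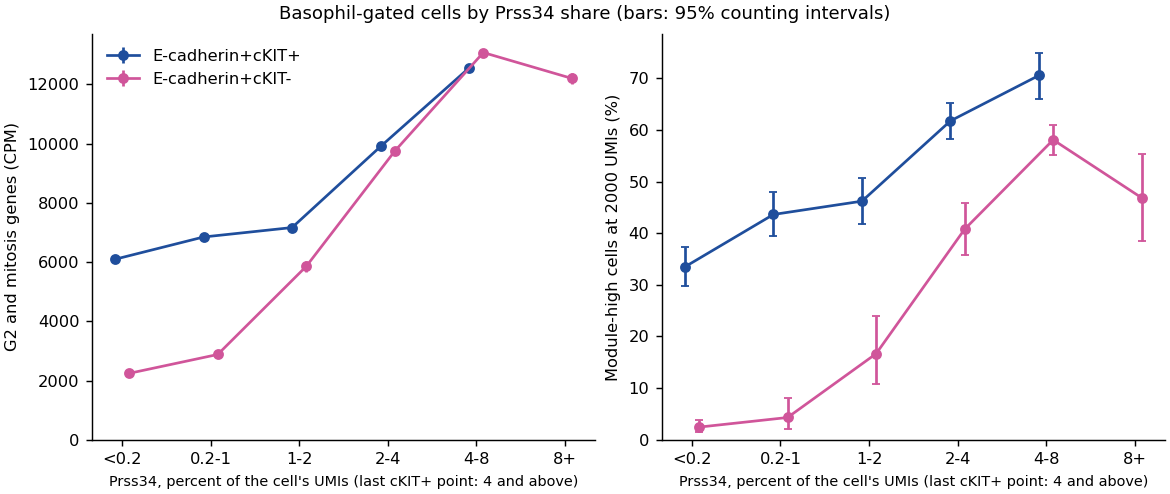
Summed CPM of the 50 genes (left) and percent of module-high cells at 2000 UMIs (right) in basophil-gated cells, by the percent of a cell's UMIs that are Prss34 (x axis), with 95% counting intervals as bars. From below 0.2% to the bin that starts at 4%, cKIT+ cells go from 6096 to 12562 CPM, and cKIT- cells from 2242 to 13079 CPM.

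The lowest bin thus held 0.485 of the level of the highest bin in cKIT+ basophils (0.480 to 0.491) and 0.184 in cKIT- basophils (0.178 to 0.189). In cells of 5000 to 15000 UMIs, the ratios were 0.262 and 0.278. The gradient kept its direction in this window. The ratios of the 2 libraries were then close, but they are not read as 1 shared gradient. The lowest bins held unlike cells, with Kit at 34.3 CPM in cKIT+ and 0 CPM in cKIT- basophils. Module-high cells were 33.5% and 2.44% of them. Module-high cKIT+ basophils, at a median of 17192 UMIs over all bins, lie mostly above the window. The ratios do not span the same range, since the highest bin starts at 4% Prss34 in cKIT+ and at 8% in cKIT- basophils. With a median of 3046 UMIs, most cells of the lowest cKIT- bin also lie below the window. Binned by Mcpt8 in place of Prss34, the ratios were 0.515 and 0.175.

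All 50 members lay lower in the lowest than in the highest bin of cKIT+ basophils, and for 49 the interval excluded 1. At least 2-fold lower were 29 members, where 4.14% of the 9501 genes tested were, and none was 2-fold higher, where 6.1% were. The median log2 ratio was -1.03 over the members and 0.07 over all genes tested. By role the sums ran from 0.420 for the ubiquitin ligases to 0.572 for the kinases and Cks proteins. Ube2c went from 262 CPM through 298, 293 and 490 to 656 CPM, with the largest step at 2% Prss34. Birc5 went from 171 to 457 CPM, Cenpa from 161 to 362 CPM, Mki67 from 181 to 470 CPM and Hmgb2 from 1221 to 2844 CPM. Cks1b moved less, from 243 to 353 CPM, and Cks2 from 407 to 647 CPM. The single member whose interval spanned 1 was Psrc1, at 9.22 and 9.36 CPM. Also higher at the top were Cdc20 (76.5 to 166 CPM), Ccnb2 (91.0 to 183 CPM), Aurka (29.1 to 68.2 CPM), Top2a (380 to 750 CPM), Smc4 (261 to 448 CPM) and Tubb4b (399 to 739 CPM).

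In cKIT- basophils of the lowest bin, many of the genes were near 0. Cdk1 had 3 UMIs there (1.21 CPM) and 460 in the highest bin (359 CPM). Ube2c had 9 UMIs against 974, or 3.64 against 759 CPM. Cdc20 had 12 UMIs against 228, Ccnb2 11 against 283, Top2a 15 against 564, Mki67 9 against 365 and Birc5 14 against 486. Aurka had 1 UMI against 111, which put its level at 0.40 and 86.5 CPM. For Cdc25c, Nek2, Ttk, Ckap2l and Gtse1 no UMI was counted in these 808 cells, where 3 UMIs would be 1.21 CPM. Measured against that limit, Ckap2l was at least 46.3-fold lower than in the highest bin and Nek2 at least 29.6-fold lower.

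A few members remained at a fair level in the same cells. Hmgb2 had 2663 UMIs or 1077 CPM below 0.2% Prss34 and 3638 CPM at the top. Cks2 had 716 UMIs, or 290 against 616 CPM, Tubb4b 320 UMIs, or 129 against 733 CPM, and Smc4 248 UMIs, or 100 against 348 CPM. Kif23 had 70 UMIs, or 28.3 against 79.5 CPM. Cenpa kept 71 UMIs but was much lower than at the top, at 28.7 against 465 CPM. Its neighbours at the kinetochore, Ndc80 and Nuf2, had 1 UMI each. Lbr did not fall at all: it was at 379 CPM in the lowest bin, between 349 and 378 CPM in the next 4, and at 319 CPM above 8%. Together Hmgb2, Lbr, Cks2, Tubb4b and Smc4 were 4884 of the 5544 member UMIs in these cells, or 88.1%.

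**Figure D3:**
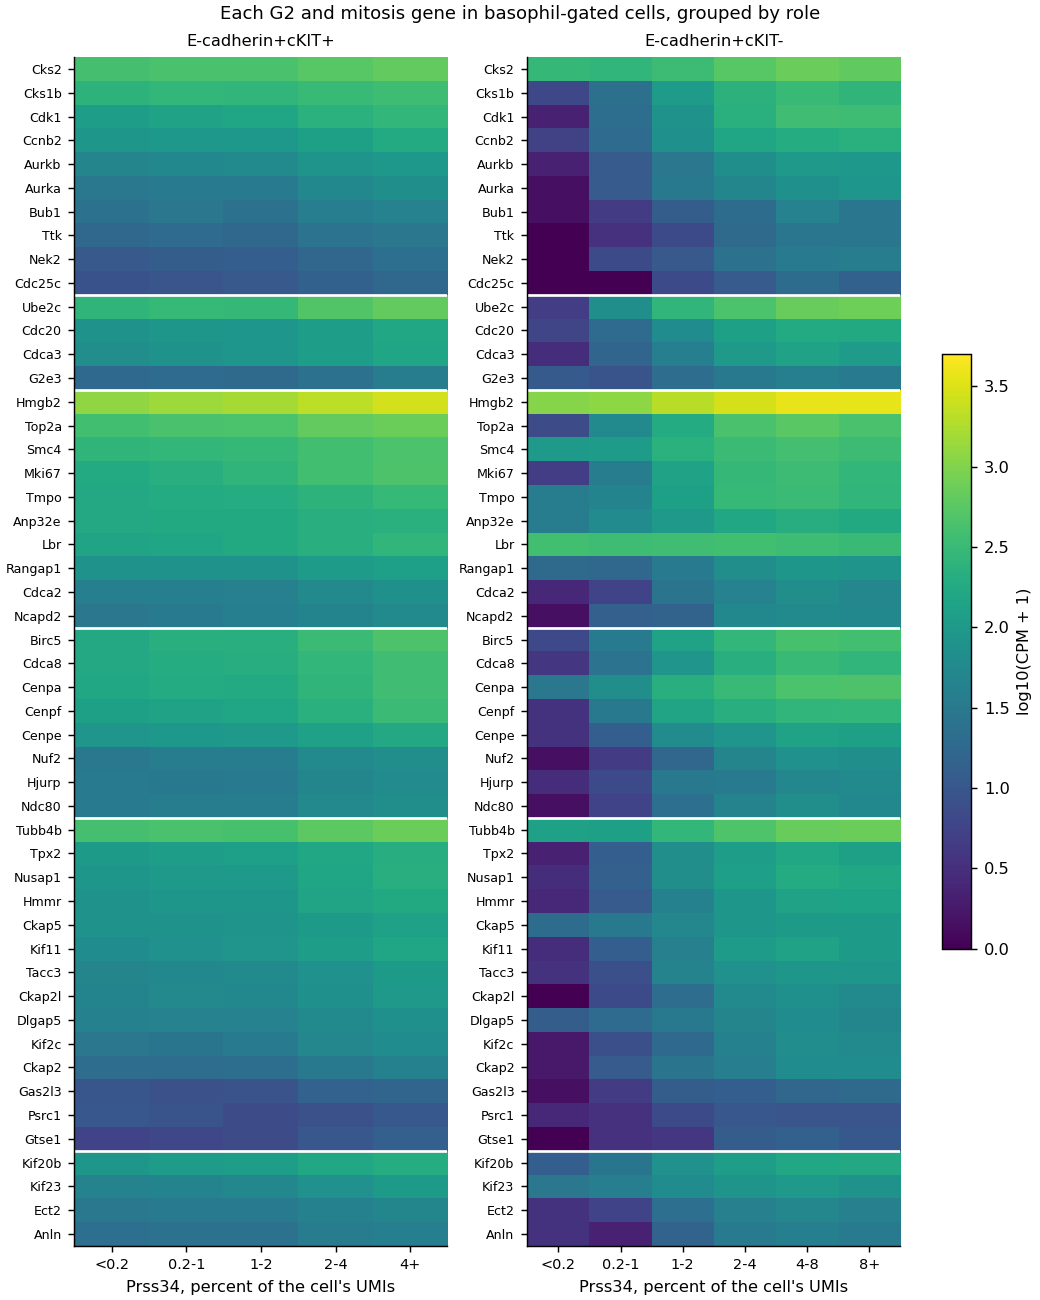
Level of each of the 50 genes (rows, grouped by role with white lines) in basophil-gated cells by Prss34 share (columns), in color as log10(CPM + 1), for the cKIT+ (left) and cKIT- library (right). In the lowest cKIT- bin most rows are dark, with Cdk1 at 1.21 CPM, while Hmgb2, Cks2, Tubb4b, Smc4 and Lbr remain bright and Lbr keeps 379 CPM.

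Of the 50 members, 42 had 50 UMIs or more over both of these bins and were tested against the 2-fold limit. The other 8 were Cdc25c, Nek2, Ttk, Bub1, Psrc1, Gtse1, Gas2l3 and Anln, whose lowest-bin counts were between 0 and 6 UMIs. Lower by at least 2-fold were 41 members, where 9.67% of the 6431 genes tested were, and none was 2-fold higher, where 14.1% were. A gene can pass this filter through the highest bin alone, so the 41 is a description. By role, the summed ratio was 0.0191 for the ubiquitin ligases, 0.0265 for the centromere genes, 0.101 for the spindle genes, 0.140 for the cytokinesis genes, 0.174 for the kinases and 0.293 for the chromosome and nuclear envelope proteins. These sums rest on few genes, since Cks2 gave 716 of the 748 kinase UMIs in the lowest bin and Tubb4b 320 of the 428 spindle UMIs. Without the gene that had most UMIs there, a step chosen after seeing the data, the ratio was 0.0115 for the kinases (without Cks2), 0.0100 for the ubiquitin ligases (without G2e3), 0.0132 for the centromere genes (without Cenpa), 0.0445 for the spindle genes (without Tubb4b), 0.0688 for the cytokinesis genes (without Kif23) and 0.287 for the chromosome proteins (without Hmgb2). The kinases thus moved from next to the chromosome proteins to between the ubiquitin ligases and the centromere genes, and the other roles kept their order. The intervals of the kinases, ubiquitin ligases and centromere genes then overlapped. The chromosome proteins were highest both ways, but Lbr gave 937 of their 1432 UMIs left in the lowest bin without Hmgb2.

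The other cell cycle lists were read over the same bins. The 54 other G2 and mitosis genes stood at 0.558 of their highest bin in cKIT+ and 0.158 in cKIT- basophils. Plk1 had 0 UMIs in the lowest cKIT- bin and Ccnb1 3. The 41 DNA replication and S-phase genes were almost flat in cKIT+ basophils, at 3567 and 3940 CPM, a ratio of 0.905 (0.890 to 0.921), against 0.328 in cKIT- basophils. Mcm6, a subunit of the replicative helicase, was higher in the lowest cKIT+ bin, at 222 against 167 CPM, while Tyms, which makes thymidylate, was lower, at 179 against 279 CPM. The histone mRNA binding protein Slbp had 165 and 262 CPM, and the histone chaperone Nasp 176 and 153 CPM. Summed, the 11 antiproliferative genes were the only list that ran the other way in cKIT- basophils, with 1636 CPM in the lowest and 940 CPM in the highest bin. Btg1 was at 649 and 235 CPM there and Btg2 at 439 and 146 CPM, but Cdkn2d at 143 and 230 CPM. Btg1 and Btg2 together fell by about as much as the sum, so its direction rests on them. Of the 9 genes tested, 6 were higher in the lowest bin, 4 of them at least 2-fold. The other 3 were lower, 2 of them at least 2-fold. In cKIT+ basophils this list rose with Prss34 like the members, from 342 to 626 CPM.

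Counted per cell with the same minimum of 10 UMIs of 2000, the S-phase list and the members overlapped in part. The lists differ in level, at 3757 CPM for the S-phase genes and 8344 CPM for the members in cKIT+ basophils. The same minimum is thus harder to reach for the S-phase list. The shares below do not compare how many cells are in each phase. In cKIT+ basophils, 17.5% of cells were high in both, 13.7% in S-phase genes alone, 33.0% in the members alone and 35.8% in neither. The cKIT- basophils had 11.3%, 5.85%, 22.3% and 60.6%. Along the Prss34 bins of the cKIT+ library, cells high in members alone rose from 22.6% (19.5% to 26.0%) to 46.1% (41.3% to 51.0%) and cells high in both from 10.9% to 24.5%, while cells high in S-phase genes alone were 14.4% and 9.65%. In the lowest cKIT- bin, 0 of 737 cells were high in S-phase genes (upper bound 0.499%), and in the bin from 4% to 8% 30.7% were.

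Single members were also compared between cells that were high and not high for the other 49 genes, so that no gene chose its own cells. In basophils of both libraries all 50 members were higher in the high cells, with intervals above 1, and 49 were at least 2-fold higher. Between module-high and other basophils, 3.59% of 7751 genes tested were at least 2-fold higher in the high cells of the cKIT+ library. In the cKIT- library 9.33% of 7442 were. Of the members, 47 and 46 reached the 50 UMIs needed for that test, and 46 and 45 of them passed 2-fold. Those module-high cells were chosen by all 50 members, and a member can reach 50 UMIs through them alone. These counts are therefore a description. In the comparison by the other 49 genes, the median ratio was 8.70 for cKIT+ and 42.0 for cKIT- cells. The sharpest contrasts were in the cKIT- library, where Nusap1 had 481 UMIs in 906 high cells and 2 UMIs in 1794 other cells, a ratio of 476 (131 to 3944). Kif2c, a kinesin that takes microtubules apart, had 143 UMIs and 0. Nuf2 had 186 and 1, Hmmr 332 and 2, and Aurka 193 and 2 UMIs. Birc5 was at 567 and 3.06 CPM, 185 times higher (103 to 372). At the other end, Lbr was 1.29 times higher (1.18 to 1.41) in the cKIT- and 1.30 times (1.15 to 1.47) in the cKIT+ library. Cks2 was 3.49 times higher, Hmgb2 4.30, Smc4 5.30, Anp32e 6.06 and Rangap1 6.11 times higher in the cKIT- library. In the cKIT+ library, Ube2c stood at 642 against 16.0 CPM and Gas2l3 had 51 UMIs against 1 (interval of the ratio 8.58 to 2013), while Anp32e, Tmpo, Cks2, Rangap1 and Hmgb2 were between 2.41 and 3.12 times higher. The midzone kinesin Kif23 had the wider gap in this library, with 329 UMIs in high and 17 in other cells, against 260 and 81 UMIs in the cKIT- library, whose ratio was 6.36 (4.94 to 8.26).

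**Figure D4:**
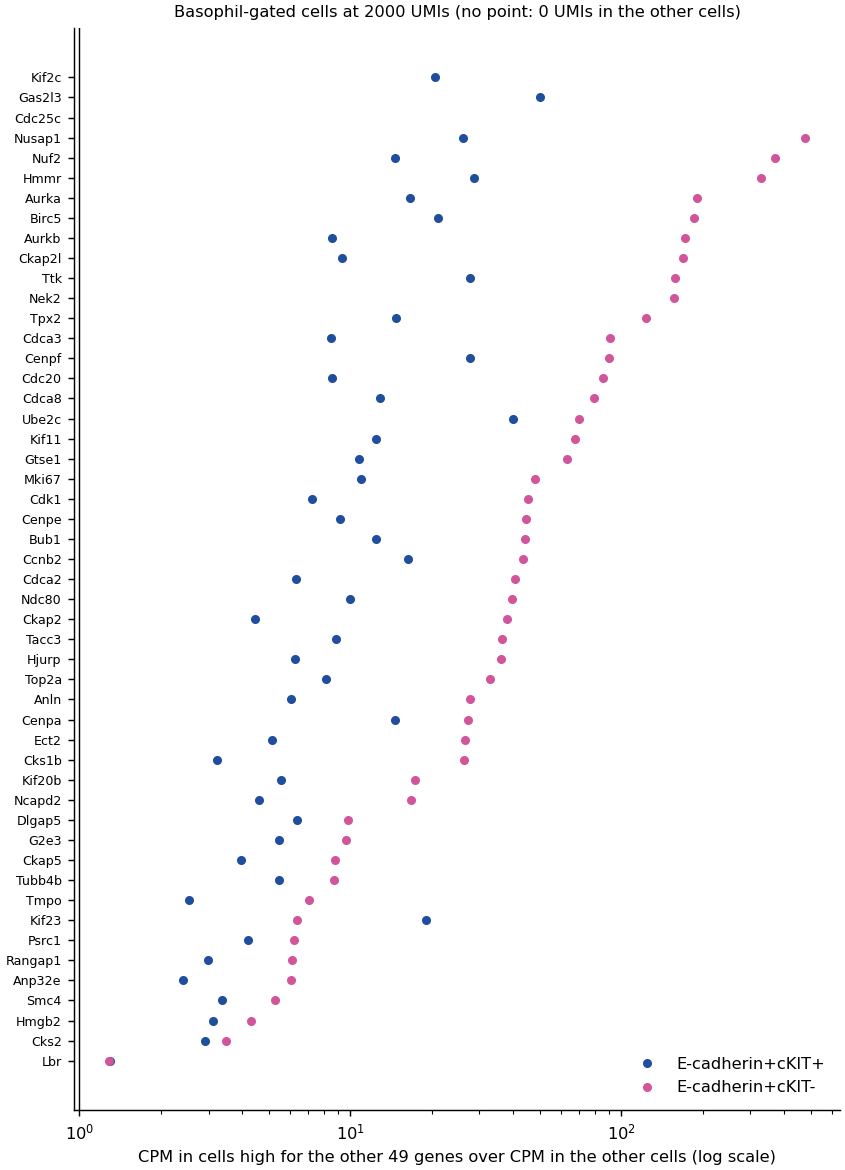
For each gene (rows), its CPM in basophils that were high for the other 49 genes divided by its CPM in the remaining basophils (x axis, log scale), in cKIT+ (blue) and cKIT- cells (pink). Where both points can be drawn, the pink one lies further right for every gene but Kif23 and Lbr, and Lbr is lowest in both at 1.30 and 1.29; no point is drawn for a gene with 0 UMIs in the remaining cells.

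The members were then summed in cells that passed the marker gate of another lineage. In the cKIT+ library the level was 10409 CPM (10185 to 10637) in 62 erythroid-gated cells, above the 8344 CPM of the basophils. The 418 neutrophil-gated cells, at 8665 CPM, and the 85 monocyte-gated cells, at 8602 CPM, were nearer to the basophils. Module-high cells were 61.5% (47.0% to 74.7%), 53.4% (48.4% to 58.4%) and 45.3% (33.8% to 57.3%) of these at 2000 UMIs, and all of these intervals overlap that of the basophils, at 50.5%. The 1173 cells gated by the primary granule genes Elane, Mpo, Prtn3 and Ctsg had 6627 CPM and 44.9%. These cells also carried Mcpt8, at a median of 0.314% of UMIs, and many lay near the limit of the gate, so they are not given a cell type name. Eosinophil-gated cells had 5094 CPM and 28.8%.

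Lowest in the cKIT+ library were the cells gated by Gzmb and Cma1, the dendritic-gated and the macrophage-gated cells. The 273 cells gated by the protease genes Gzmb and Cma1 had 2349 CPM and 3.76% module-high cells (1.82% to 6.80%). The 69 dendritic-gated cells had 2288 CPM and the 73 macrophage-gated cells 1478 CPM. In the macrophage-gated cells Hmgb2 was at 132 CPM and Cks2 at 56.0 CPM, against 1807 and 488 CPM in the basophils. Hmgb2 was highest in the neutrophil-gated cells, at 3032 CPM, with Cks1b at 148 CPM, lower there than in the basophils (292 CPM). Hmgb2 was thus a larger part of the member sum in the neutrophil-gated cells than in the basophils. The near sums of these 2 gates do not mean like levels of the other members. The erythroid-gated cells led in Ube2c (842 CPM), Tubb4b (1208 CPM), Mki67 (722 CPM) and Birc5 (458 CPM), whereas their Top2a, at 334 CPM, was below the 525 CPM of the basophils.

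B cell-gated cells had 10487 CPM with 29.9% module-high cells in the cKIT+ library (67 cells at 2000 UMIs) and 4111 CPM with 3.12% in the cKIT- library (224 cells). Cenpa was at 367 and 222 CPM in them and Top2a at 553 and 109 CPM. Per cell the cKIT+ B cell gate was not high. Its median cell held 0.143% of its UMIs in the members, against 0.488% in the cKIT+ basophils. The order of the gates by CPM is therefore not their order by cells. The 367 cKIT- cells that passed no gate had 2247 CPM. Of the 306 with 2000 UMIs, 18 were module-high, or 5.88%, against 2.45% without thinning. Their highest member share was 0.645%, near the 0.5% limit. Ccnb2, Cdc20 and Aurka had 0 UMIs in these 367 cells, where 3 UMIs would be 2.997 CPM, and Ube2c had 4 UMIs. Yet Hmgb2 was at 1066 CPM, Lbr at 350 CPM and Cks2 at 327 CPM in the same cells, close to their levels in the cKIT- basophils below 0.2% Prss34.

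**Figure D5:**
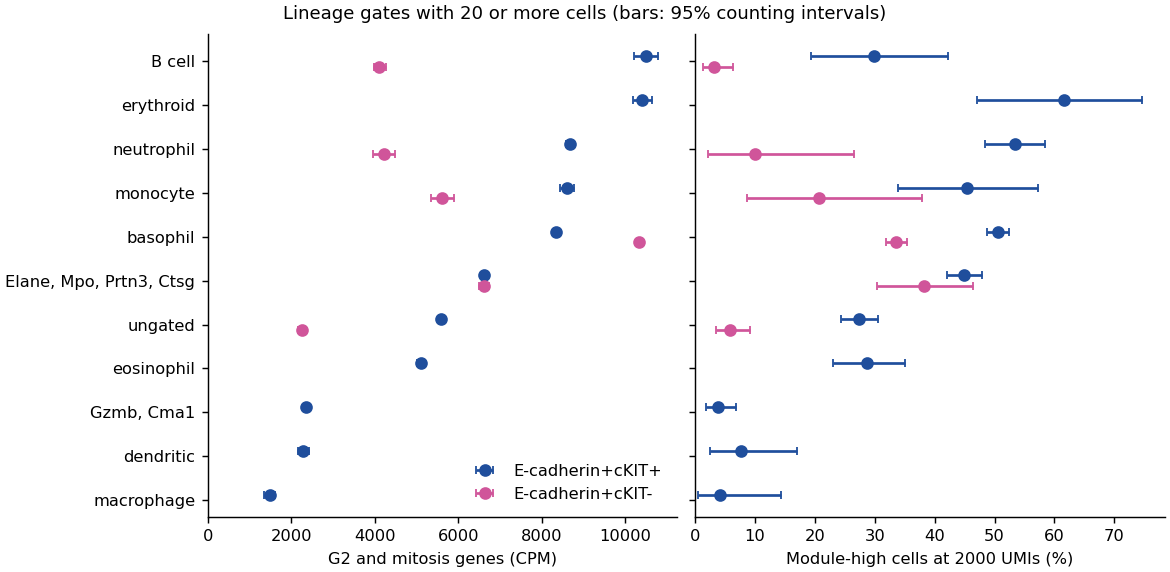
Summed CPM of the 50 genes (left) and percent of module-high cells at 2000 UMIs (right) for each lineage gate (rows) with 20 or more cells in a library, with 95% counting intervals as bars. In the cKIT+ library the gates range from 1478 CPM in macrophage-gated to 10487 CPM in B cell-gated cells. By module-high cells the B cell gate, at 29.9%, lies below the basophils, at 50.5%.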

How the data were processed

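Per the submitters' processing notes, the authors used Cell Ranger 3.0.2 and mm10. They deposited 1 matrix of unnormalized UMI counts for each sort of E-cadherin+ bone marrow cells. The annotation release was not given in the sources used here. The methods name version 3 of the kit and the labels version 2.

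The cell filter of the study was repeated within each library: only genes found in 40 cells or more were counted, and the outer 1% of cells by genes and the top 1% by UMIs were removed. Depth was equalised by drawing 2000 UMIs per cell without replacement, which left out 345 cKIT+ and 176 cKIT- cells. No doublet caller was run; the 5% of cells with most UMIs were left out as an alternative. A gate is the summed share of a marker list in a cell's UMIs: 0.1% for Mcpt8 and for Gzmb with Cma1, 1% for neutrophil, dendritic and Elane lists, 0.3% for the others.

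With 1 library per condition nothing was tested. Sums carry exact Poisson, ratios exact conditional binomial and shares Clopper-Pearson intervals at 95%. PCR and droplet capture are not covered by them. Bounds for genes at 0 use 3 counts. On simulated counts for the 2 libraries, all 200 genes changed 4-fold were recovered past 2-fold, with 23 false calls among 12503 genes tested. The simulated counts held counting error alone, so they check the 2-fold call and not the comparisons made here. The members, lists, gates and bins were chosen with earlier results of these data known. Named were the members with most UMIs per role, the 5 with the highest and lowest ratio, preset genes, and, chosen after their values were seen, further members at the ends of a range. Scripts used Python 3.11.15, NumPy 2.4.6, SciPy 1.17.1 and pandas 2.3.3.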

Additional observations from a re-analysis of the deposited data

How the results depend on the processing

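No paired analysis was possible because a single library stands for each sort. Of 68 alternatives of the main values, 18 stayed within the counting interval, 47 moved and 3 reversed; of 92 alternatives of the summed level in single gates, 69 moved and 23 did not. Levels of single genes were not recomputed under the alternatives, other than the counts given here and in the report. The cause was not tested unless the setting itself makes the change.

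The ratio of the 50 genes between the sorts (0.786), and that in basophils (0.807), was 0.775 and 0.799 with all deposited cells, 0.865 and 0.890 without the 5% of cells with most UMIs, 0.737 and 0.761 without the 10 most abundant genes in the totals, 0.878 and 0.902 without the 5 most abundant members, and 0.881 and 0.906 without Hmgb2. As UMIs per cell both turned, to 1.77 and 1.75, which keeps the depth difference by construction, and at equal weight per cell they were 0.987 and 1.03. In basophils, gate limits halved or doubled gave 0.888 and 0.802, and cells of 5000 to 15000 UMIs 0.459. That window leaves out deep module-high cKIT+ cells and shallow cKIT- cells that are not module-high. With UMIs per cell, 26 members were 2-fold higher in cKIT+ cells, against 0 by CPM. On the scale of UMIs per cell, 61.9% of all 12498 genes tested were 2-fold higher.

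The ratio of the lowest to the highest Prss34 bin stayed below 1 in every alternative run. In cKIT+ basophils (0.485) it was 0.471 without the deepest cells, 0.446 without the 10 genes, 0.499 as UMIs per cell, 0.410 at equal weight, 0.495 without 5 members, 0.502 without Hmgb2, 0.420 and 0.505 with gate limits halved and doubled, 0.262 in the depth window and 0.515 in Mcpt8 bins. In cKIT- basophils (0.184) these were 0.206, 0.163, 0.0627, 0.221, 0.122, 0.136, then 0.278 in the window and 0.175 in Mcpt8 bins. The window, the Mcpt8 bins and the run without Hmgb2 were chosen after seeing the data.

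Module-high cells (42.4% and 28.9%) were 43.8% of cKIT+ cells with all deposited cells, and 40.7% and 25.6% without the deepest cells. Without 5 members they were 28.7% and 20.8%, at 4000 UMIs 43.8% and 45.8%, without thinning 40.8% and 26.6%, with 5 UMIs as the minimum 63.2% and 57.2%, and with 20 UMIs 24.9% and 20.8%. At 1000 UMIs the cKIT- share was 31.7%. Depth limits the cKIT- library, where 44.9% of cells hold fewer than 4000 UMIs.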
